A study of Mus musculus with 8 samples.

Results

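The SoxE genes Sox8, Sox9 and Sox10 and the SoxF genes Sox7, Sox17 and Sox18 of the mouse were described here in 8 RNA-sequencing libraries. The 6 genes were taken by their membership of these families, found by Ensembl ID among the 46078 gene IDs of the count files and named with GENCODE M21, and all 6 are listed in every library. Sox proteins bind the minor groove of DNA through an HMG box, and members within a family often stand in for each other. SoxE factors act in the testis and in neural crest: Sox9 directs the differentiation of Sertoli cells, the somatic cells that nurse male germ cells, Sox8 acts beside it, and Sox10 is a factor of neural crest and glia. SoxF factors act in endoderm and in blood vessels: Sox17 and Sox7 are known from definitive and extraembryonic endoderm, and all 3 SoxF genes from endothelium.

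The study asked whether mouse embryonic stem cells (ESCs) can be turned into testicular somatic cells and whether such cells support germ cell formation. 4 groups of 2 libraries were compared. The tcESCs were XY ESCs on a C57BL/6 background with the tesco-cfp reporter, kept in 2iLIF medium. The tc;Sf1ESCs were 1 colony of these cells selected with G418 after transfection of pCDNA3-Sf1, which expresses mouse Sf1 (the gene Nr5a1) without interruption. SCLCs, Sertoli cell-like cells, were CFP-positive cells sorted at day 12 from testicular cultures grown from tc;Sf1ESCs. These cultures had 2 days of the Wnt activator CHIR99021 with TTNPB, a retinoic acid receptor agonist, and then CHIR99021, BMP7 and FGF9. SCLCs thus carry both the reporter and the Sf1 transgene. The todPGCLCs, primordial germ cell-like cells, came from Prdm1-gfp XY ESCs made into epiblast-like cells, and were sorted as GFP-positive cells from day 6 of organoid co-culture with testicular cells, with a second surface marker for which the study names CD49f in one place and SSEA1 in another. Their own parental ESC line is not among these libraries, so a difference from tcESCs or tc;Sf1ESCs cannot be told apart from a difference between ESC lines. The tesco element is the core of the testis enhancer of Sox9, so SCLCs were selected through a Sox9 enhancer, and Sox9 in SCLCs is not independent of the sort. In bulk libraries of sorted cells, fewer cells with a transcript and less of it per cell cannot be told apart.

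Libraries held 25411033 to 30680191 counts on genes, at which 3 counts, taken as the limit of measurement, are 0.0975 to 0.118 CPM (counts per 1e6 counts on genes, scaled by TMM factors), and such limits cover counting error only. No pair of replicates was alike within counting error, and the SD of the log2 difference between them was 0.518 in SCLCs against 0.310 to 0.378 in the other groups. The transgene's own gene, Nr5a1, had 1 and 0 counts in tcESCs against 52 and 30 in tc;Sf1ESCs, with 341 and 535 in SCLCs, as the labels require. Against tc;Sf1ESCs, 9 of 10 ESC markers fell in SCLCs and 6 of 7 Sertoli markers tested (Sox9 left out) rose, where 18.1% of all genes were lower and 24.1% higher. Nr5a1 is among the 6, and its rise cannot be told apart from a change of the transgene. Of the genes that define the fetal Sertoli cell, however, Amh had 10 and 22 counts in SCLCs against 17 and 24. Dhh, whose mean count was too low for the test, had 5 and 1 against 11 and 24. In todPGCLCs 4 of 8 germ cell markers were higher than in tcESCs, where 18.1% of all genes were higher. They were led by Prdm1, the gene of the sort reporter, at 4919 and 5140 counts. The study describes its experiments as biologically replicated in general, without saying how the replicates of each group were grown, and p-values measure only the spread between these libraries.

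The 6 genes lie on 6 chromosomes of GRCm38 (mm10). Sox8 spans chr17:25565892-25570686 on the minus strand, Sox9 chr11:112782224-112787760 on the plus strand, and Sox10 chr15:79154908-79165240 on the minus strand. Sox7 spans chr14:63943673-63950732 on the plus strand, Sox17 chr1:4490931-4497354 on the minus strand, and Sox18 chr2:181669836-181671640 on the minus strand. Their merged exons cover 1.62 kb in Sox18, 3.05 kb in Sox10, 3.12 kb in Sox8, 3.30 kb in Sox7, 4.14 kb in Sox9 and 4.77 kb in Sox17.

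How alike the members are decides whether 50-base reads can be assigned to one of them. The 90 bases of coding sequence most alike in Sox8, Sox9, Sox10, Sox17 and Sox18 lie in the HMG box and are shown from the GENCODE M21 transcripts, 5′ to 3′ on the coding strand, with capitals at the 56 positions where these 5 members have the same base. The stretch starts at coding base 304 in Sox8, 322 in Sox9, 319 in Sox10, 211 in Sox17 and 244 in Sox18, counted from 1 at the start codon.
Sox8: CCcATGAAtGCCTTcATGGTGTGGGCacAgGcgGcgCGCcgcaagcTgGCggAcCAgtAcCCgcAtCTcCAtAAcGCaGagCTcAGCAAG
Sox9: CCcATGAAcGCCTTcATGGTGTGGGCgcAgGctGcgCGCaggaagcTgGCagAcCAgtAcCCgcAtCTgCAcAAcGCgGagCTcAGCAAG
Sox10: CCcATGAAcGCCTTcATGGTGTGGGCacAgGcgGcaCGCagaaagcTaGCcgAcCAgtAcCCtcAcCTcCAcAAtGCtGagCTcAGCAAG
Sox17: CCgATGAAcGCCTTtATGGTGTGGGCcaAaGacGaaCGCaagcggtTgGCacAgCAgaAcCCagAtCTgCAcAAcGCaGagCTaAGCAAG
Sox18: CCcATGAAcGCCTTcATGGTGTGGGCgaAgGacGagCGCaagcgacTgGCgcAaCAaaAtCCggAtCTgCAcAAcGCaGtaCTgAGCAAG
The SoxE members shared 87.8% to 90% of these bases and Sox17 and Sox18 shared 83.3%, against 70% to 78.9% between the families. The longest run of identical bases between the coding sequences of 2 of these 5 members was 44, between Sox9 and Sox10, so no 50-base stretch of one coding sequence recurs in another of them. Of the distinct 50-base words in their transcripts, none of Sox9, Sox10 and Sox18 and 0.0615% of Sox7 occurred in the transcripts of another gene on either strand. For Sox8 the share was 8.99%, all in the antisense gene 2810468N07Rik that overlaps it, and for Sox17 it was 15.0%, all in Gm37587 on the opposite strand. The libraries were strand-specific, but the strand setting of the counting is not given in the sources used here, so reads of these pairs may not be fully separated.

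**Figure D1:**
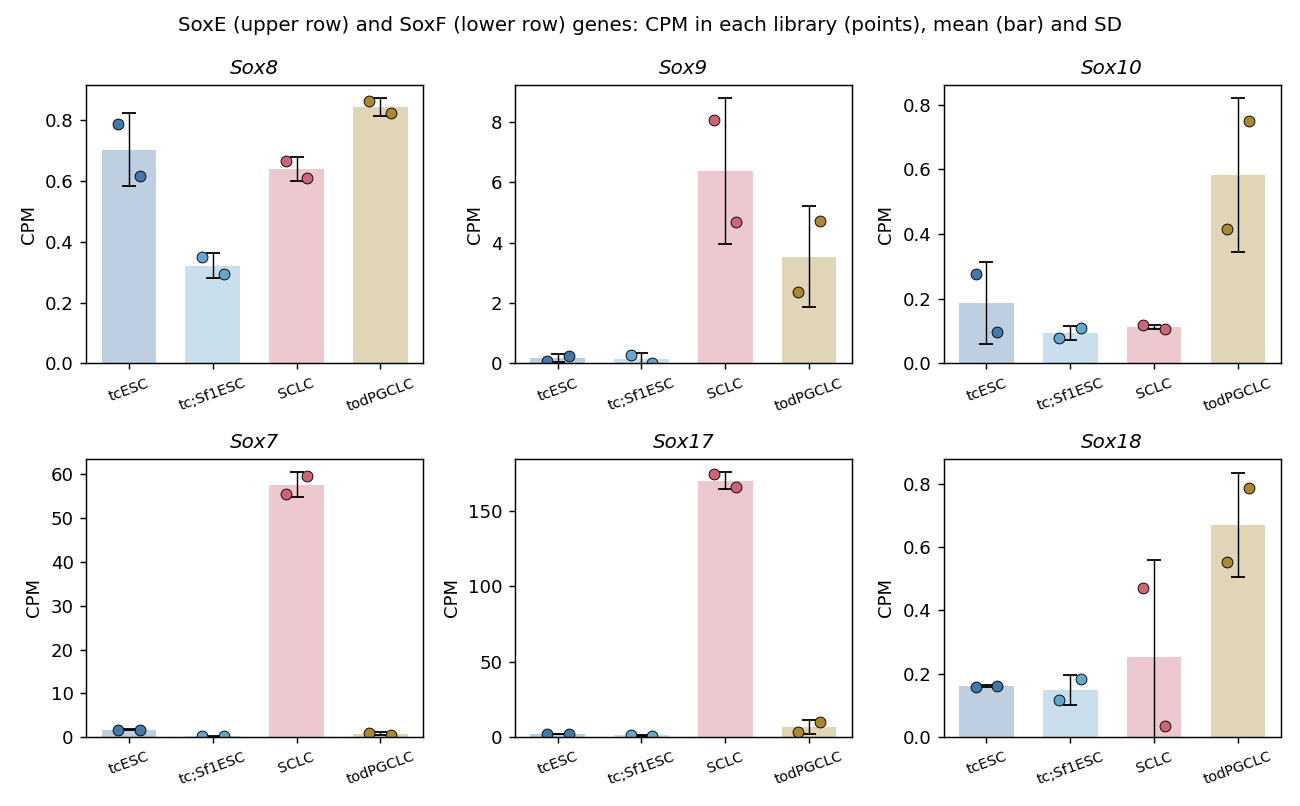
CPM of the 6 genes in each library (points), with the mean (bar) and SD of the 2 libraries of a group, each panel on its own linear axis from 0 (SD bars that reach below 0 end there). Sox7 and Sox17 stand at 55.6 to 174 CPM in SCLCs against at most 10.1 CPM elsewhere, Sox9 is raised in both SCLCs and todPGCLCs, and Sox8, Sox10 and Sox18 stay under 1 CPM in every library.

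Sox17, a factor that endoderm cells need, had the highest level per kb of exon among the members in tc;Sf1ESCs, SCLCs and todPGCLCs, and came after Sox7 in tcESCs. It had 51 and 59 counts in tcESCs, 32 and 29 in tc;Sf1ESCs, 4436 and 4618 in SCLCs, and 92 and 282 in todPGCLCs. The SCLC libraries stood far above all others. In CPM the means were 1.15 ± 0.129 in tc;Sf1ESCs, 1.96 ± 0.0665 in tcESCs, 6.63 ± 4.88 in todPGCLCs and 169.93 ± 5.68 in SCLCs (SD, n = 2 in each group). Sox7, the SoxF gene of primitive and parietal endoderm, had 44 and 50 counts in tcESCs, 4 and 8 in tc;Sf1ESCs, 1418 and 1662 in SCLCs, and 28 and 14 in todPGCLCs. From low to high, its order was tc;Sf1ESCs (0.224 ± 0.0971 CPM), todPGCLCs (0.734 ± 0.330), tcESCs (1.68 ± 0.0781) and SCLCs (57.7 ± 2.91). Sox18, a factor of endothelium and lymphatic vessels, was near the limit of measurement, with 4 and 5 counts in tcESCs, 3 and 5 in tc;Sf1ESCs, 12 and 1 in SCLCs, and 16 and 22 in todPGCLCs. The SCLC libraries spanned the whole range of both ESC groups, and the todPGCLC libraries were above the others.

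Sox9 was close to absent in ESCs, with 2 and 8 counts in tcESCs and 7 and 0 in tc;Sf1ESCs. It reached 206 and 130 counts in SCLCs and 68 and 132 in todPGCLCs. These 2 groups overlapped each other, at 6.37 ± 2.41 CPM in SCLCs and 3.53 ± 1.68 in todPGCLCs. The ESC means were 0.169 ± 0.128 in tcESCs and 0.136 ± 0.192 in tc;Sf1ESCs. Sox8, which acts beside Sox9 in Sertoli cells, had 20 and 19 counts in tcESCs, 9 and 8 in tc;Sf1ESCs, 17 and 17 in SCLCs, and 25 and 23 in todPGCLCs. Its SCLC libraries, at 0.639 ± 0.0395 CPM, overlapped the tcESC libraries, at 0.703 ± 0.121 CPM, with tc;Sf1ESCs lowest at 0.321 ± 0.0403 CPM and todPGCLCs highest at 0.843 ± 0.0291 CPM. Sox10, the neural crest member, had 7 and 3 counts in tcESCs, 2 and 3 in tc;Sf1ESCs, 3 and 3 in SCLCs, and 12 and 21 in todPGCLCs, so that it was at or under the limit in both groups that express Sf1.

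Levels of different genes were set side by side per kilobase of exon. In SCLCs Sox17 stood at 35.6 ± 1.19 CPM per kb, Sox7 at 17.5 ± 0.881 and Sox9 at 1.54 ± 0.583. In the SCLC libraries Sox17 was thus 18.7 and 30.8 times and Sox7 8.63 and 16.0 times the level of Sox9 per kb, although the cells had been sorted through a Sox9 enhancer. Sox17 was 2.16 and 1.92 times Sox7 in SCLCs, while in tcESCs it was below Sox7, at 0.801 and 0.816 times. In todPGCLCs Sox17 was 1.17 and 1.85 times Sox9, and the ratio of Sox17 to Sox7 differed between the libraries, at 2.27 and 13.9. Summed over the family, SoxF transcripts made 230.02 and 225.67 CPM in SCLCs and SoxE transcripts 8.86 and 5.39 CPM, against 4.70 and 11.4 and 3.63 and 6.29 CPM in todPGCLCs.

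The other 14 Sox genes gave a measure of where the members stand within the family. Of 20 Sox genes, Sox17 had rank 1 per kb in SCLCs, level within its spread with Sox2 (34.5 ± 23.6 CPM per kb), the pluripotency factor, and Sox7 had rank 3, ahead of Sox15 (14.3 ± 4.89) by less than the spread. Sox9 had rank 9 in SCLCs, Sox8 rank 13, Sox18 rank 14 and Sox10 rank 17. In tcESCs the highest member was Sox7, with rank 10 at 0.509 ± 0.0237 CPM per kb, beneath Sox2 at 250.62 ± 6.80. Sry, the Y-linked gene that switches on Sox9 in the fetal testis, had 0 counts in all 8 libraries, which allows up to 0.0975 to 0.118 CPM per library.

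**Figure D2:**
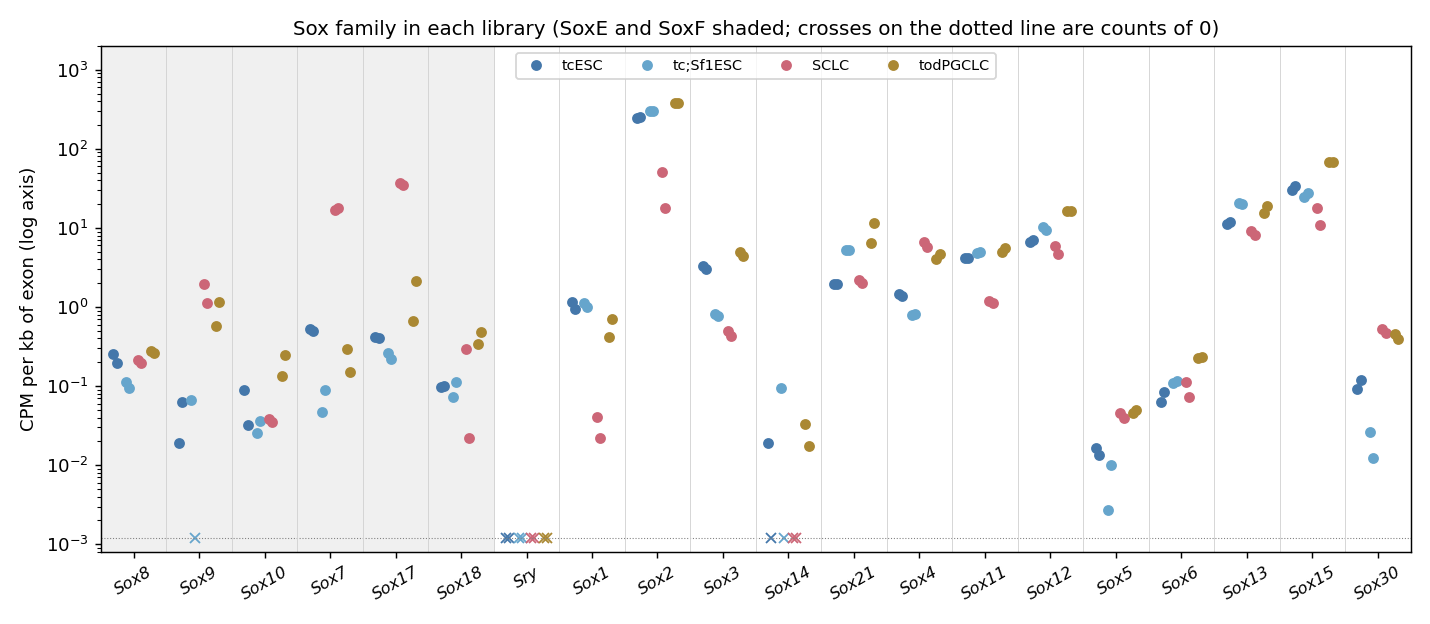
CPM per kb of exon in each library for the 6 SoxE and SoxF genes (shaded) and 14 other Sox genes, on a log axis, with crosses on the dotted line for libraries with 0 counts. Sox7 and Sox17 stand higher in SCLCs than in every other group, Sox2 is at 51.2 and 17.8 in SCLCs against 245.81 to 378 elsewhere, and Sry is at 0 in every library.

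The test was edgeR's quasi-likelihood test, with p-values adjusted by Benjamini-Hochberg over all genes tested, and a gene was called at a fold change over 2 and an adjusted p under 0.05. Sox8, Sox9, Sox7 and Sox17 passed the filter of a mean count above 10, while Sox10 and Sox18 did not and have no test there. Sox9 passed only through SCLCs and todPGCLCs, where it is high, so its calls against ESCs follow in part from the filter. The first comparison asks what the Sf1 transgene line changed in undifferentiated cells. Between tc;Sf1ESCs and tcESCs, 1 of 4 members tested was called, Sox7, against 11.7% of the 16481 genes (6.04% higher and 5.62% lower). Sox7 fell 7.30-fold, by 2.87 ± 0.272 on the log2 scale (SE, adjusted p = 0.000512 by edgeR). Sox17 was 1.70-fold lower, at -0.77 ± 0.148 (log2, adjusted p = 0.00779 by edgeR), which is under the 2-fold limit. Sox8 was 2.17-fold lower, at -1.11 ± 0.372 (log2, adjusted p = 0.0579 by edgeR), and was called when either SCLC library was left out of the joint fit (adjusted p = 0.0340 and 0.0320). Sox9 gave -0.41 ± 1.19 with overlapping libraries, and its sign turned without tcESC replicate 2 (0.71) or tc;Sf1ESC replicate 2 (0.61). The tc;Sf1ESCs were 1 clone, so the transgene and other features of that clone cannot be told apart.

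Differentiation into SCLCs was followed against both ESC groups. Against tc;Sf1ESCs, the cells from which SCLCs were grown, 3 of 4 members tested were called, all higher, where 24.1% of the 16481 genes were higher and 42.2% were called in either direction. Sox9, also tied to the sort, passed the filter of this fit only through SCLCs. Of the 3 members that passed without SCLCs, 2 were higher. Sox7 rose 250.99-fold (log2 7.97 ± 0.195, adjusted p = 1.95e-07 by edgeR), Sox17 147.74-fold (log2 7.21 ± 0.107, adjusted p = 5.78e-08 by edgeR) and Sox9 46.7-fold (log2 5.54 ± 0.738, adjusted p = 0.000366 by edgeR). Only 1.54% of genes had a larger log2 fold change than Sox7, 1.84% than Sox17 and 3.20% than Sox9. The size of the Sox9 change rested on the ESC libraries, with 4.52 without tc;Sf1ESC replicate 2 and 10.4 without replicate 1, where the remaining library has 0 counts and the value is set by the fit. Sox8 gave 0.99 ± 0.378, a 1.98-fold difference (adjusted p = 0.0480 by edgeR), just under the 2-fold limit, and its adjusted p lay between 0.0638 and 0.209 with any 1 library left out.

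Against tcESCs, which lack the transgene, the same 3 members were called higher, where 24.3% of the genes were higher and 42.7% were called. With Sox9 left out for the same reason, 2 of the 3 members that passed without SCLCs were higher. Sox17 rose 86.7-fold (log2 6.44 ± 0.0995, adjusted p = 4.64e-08 by edgeR), Sox9 35.2-fold (log2 5.14 ± 0.696, adjusted p = 0.000406 by edgeR) and Sox7 34.4-fold (log2 5.10 ± 0.147, adjusted p = 3.36e-07 by edgeR). Without tcESC replicate 2 the log2 change of Sox9 was 6.25. Sox8 gave -0.13 ± 0.334 with overlapping libraries (adjusted p = 0.752 by edgeR). Both comparisons share the SCLC libraries, so they are not independent. For Sox10 and Sox18 the summed counts in SCLCs were 0.631 times (exact 95% interval 0.189 to 1.92) and 1.52 times (0.601 to 4.03) those in tcESCs after scaling, so no difference was detectable at this depth.

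**Figure D3:**
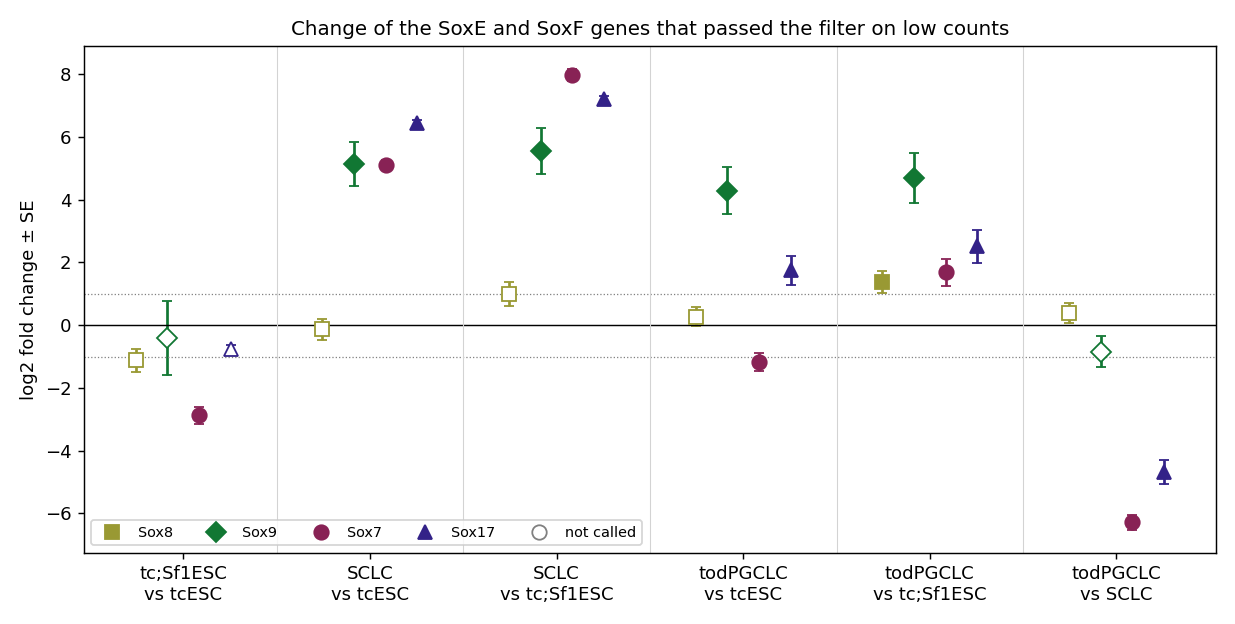
Log2 fold change with its SE of the 4 members that passed the filter in each of the 6 comparisons, filled where called, with dotted lines at a 2-fold change. Sox9, Sox7 and Sox17 are raised between 34.4-fold and 250.99-fold in SCLCs, whereas in todPGCLCs Sox9 is raised in both comparisons with ESCs and Sox7 lies on opposite sides of 0 in them.

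The todPGCLCs differed from tcESCs in 3 of 4 members tested, against 29.4% of the 16707 genes called. Sox9 rose 19.5-fold (log2 4.28 ± 0.744, adjusted p = 0.00106 by edgeR). It lies on chromosome 11, whose 1343 genes tested had a median log2 difference of 0.51, so other genes of that chromosome were also higher in todPGCLCs. Without tcESC replicate 1 or 2 the change of Sox9 was 3.70 or 5.36. Sox17 was 3.36-fold higher (log2 1.75 ± 0.467, adjusted p = 0.0103 by edgeR), with 3.18 and 10.1 CPM in the 2 libraries. Without todPGCLC replicate 2 the change was 0.70, under the limit, without todPGCLC replicate 1 it was 2.37, and without tcESC replicate 1 or 2 the adjusted p was 0.0631 or 0.0782. Sox7 fell 2.27-fold, by 1.18 ± 0.286 (log2, adjusted p = 0.00641 by edgeR), and by 0.78, under the limit, without todPGCLC replicate 2, while its chromosome 14 had a median of 0.14. Sox8 gave 0.27 ± 0.309 (adjusted p = 0.473 by edgeR).

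Against tc;Sf1ESCs all 4 members tested were called higher in todPGCLCs, where 19.4% of genes were higher and 32.7% were called. The log2 changes were 4.69 ± 0.793 for Sox9 (adjusted p = 0.000803 by edgeR), 2.52 ± 0.520 for Sox17 (adjusted p = 0.00249), 1.69 ± 0.429 for Sox7 (adjusted p = 0.00754) and 1.38 ± 0.350 for Sox8 (adjusted p = 0.00739). The median log2 differences of their chromosomes were 0.47 for Sox9, 0.11 for Sox7 and -0.12 for Sox8. Sox7 thus stood higher than in one ESC group and lower than in the other, since the ESC groups themselves differ in it. The call of Sox8 was lost without tc;Sf1ESC replicate 2 (adjusted p = 0.0628) and with DESeq2 (adjusted p = 0.0737), and that of Sox7 without tc;Sf1ESC replicate 1 (adjusted p = 0.0586) or todPGCLC replicate 1 (adjusted p = 0.0705). Without todPGCLC replicate 2 or 1 the log2 change of Sox17 was 1.47 or 3.13, and without tc;Sf1ESC replicate 2 or 1 that of Sox9 was 3.66 or 9.59.

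The 2 differentiated groups were also compared with each other. Of 4 members tested 2 were called, Sox7 and Sox17, both lower in todPGCLCs, where 19.5% of genes were lower and 38.0% were called. Sox7 was 77.8-fold lower in todPGCLCs (log2 -6.28 ± 0.233, adjusted p = 1.36e-07 by edgeR) and Sox17 25.7-fold lower (log2 -4.68 ± 0.374, adjusted p = 7.17e-06 by edgeR). Without todPGCLC replicate 1 or 2 the log2 change of Sox17 was -4.07 or -5.73. Sox9 gave -0.85 ± 0.492 (adjusted p = 0.152 by edgeR) against a chromosome 11 median of 0.53, and it was called without SCLC replicate 2 (log2 -1.20, adjusted p = 0.0319). Its change was -0.41 without SCLC replicate 1, -0.42 without todPGCLC replicate 1 and -1.43 without todPGCLC replicate 2, none of them called. Sox8 gave 0.40 ± 0.315 (adjusted p = 0.283 by edgeR).

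The low members, Sox10 and Sox18, were highest in todPGCLCs. The summed counts of Sox10 were 33 in todPGCLCs, where tcESCs had 10, tc;Sf1ESCs 5 and SCLCs 6, which after scaling is 3.25 times tcESCs (exact 95% interval 1.57 to 7.40), 6.15 times tc;Sf1ESCs (2.39 to 20.2) and 5.15 times SCLCs (2.13 to 15.0). For Sox18 the counts were 38 against 9, 8 and 13 in the same order, or 4.16 (1.98 to 9.79), 4.43 (2.03 to 10.99) and 2.74 (1.43 to 5.60) times. These intervals cover counting error only. When every gene with at least 1 count was tested, edgeR called both genes higher in todPGCLCs in each of the 3 comparisons, and DESeq2 called neither, with adjusted p from 0.0680 to 0.331. The calls of these 2 genes depended on the tool and, within edgeR, on the filter and the libraries fitted.

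Markers of primitive, visceral and parietal endoderm rose in SCLCs, as did Sox7 and Sox17. Of 20 listed, 15 passed the filter on the ESC libraries alone, and each of these 15 was called higher against tc;Sf1ESCs, with a median log2 change of 7.29 against 0.016 over all genes tested. Of all genes, 24.1% were higher and 18.1% lower in that comparison, which are the shares to set beside the counts of each list below. The other 5 (Afp, Apoa1, Foxa1, Foxa2 and Ttr) passed only through SCLCs and were higher too. Gata6, a factor of primitive endoderm, had 32 and 45 counts in tc;Sf1ESCs and 4802 and 5488 in SCLCs, and Gata4, which also belongs to the Sertoli list, 171 and 184 against 11011 and 12551. Cubn, an endocytic receptor of visceral endoderm, rose by a log2 change of 11.82 ± 0.502 and Lamc1, a laminin chain of the basement membrane, by 2.37 ± 0.0701. Ttr, a plasma carrier made by yolk sac endoderm, had 0 counts in all ESC libraries and 1240 and 3411 in SCLCs. Summed over the list, the level was 56496 and 58462 CPM in SCLCs, 1560 to 1863 CPM in ESCs, and 981 and 972 CPM in todPGCLCs, and no gene of the list was at 0 in SCLCs. A few abundant genes dominate these sums. The largest in SCLCs were Col4a1 (mean 19782 CPM), Col4a2 (9807) and Sparc (7992). Lamc1 and Sparc were lower in todPGCLCs (379 and 231 CPM) than in tcESCs (950 and 541). By number of genes, todPGCLCs had 10 of the 20 higher and 3 lower than tcESCs (median log2 1.22), where 18.1% of all genes were higher and 11.2% lower. Against tc;Sf1ESCs 12 were higher and 3 lower (median log2 1.94), where 19.4% of all genes were higher and 13.3% lower. The summed level was nevertheless lower than in both ESC groups. Between tc;Sf1ESCs and tcESCs, where Sox7 fell, 3 were higher and 2 lower (median log2 0.031), against 6.04% and 5.62% of all genes. Whether the SoxF transcripts and these markers come from the same cells was not tested.

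Definitive endoderm genes did not move as one group. Of 9 that passed the filter without SCLCs, 3 were higher and 2 lower in SCLCs than in tc;Sf1ESCs, with a median log2 change of -0.04. Krt19, a keratin of simple epithelia, rose by 9.71 ± 0.203 and Foxa2, a forkhead factor of both endoderm lists that passed the filter only through SCLCs, by 7.58 ± 0.362, while Gsc, an organiser factor, fell by 4.94 ± 0.319. In todPGCLCs 5 of 10 that passed without that group were higher and 1 lower than in tcESCs, where 18.1% of all genes were higher. There Cer1, an inhibitor of Nodal and BMP, had 73 and 337 counts against 0 in all ESC libraries, and Foxa2 75 and 190. The library with more Cer1 and Foxa2 was also the one with more Sox17 (282 against 92 counts) and Sox9 (132 against 68) but with less Sox7 (14 against 28), and their part in the Sox17 result was not tested. Cer1 was chosen after its values were seen.

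Endothelial genes, the other known setting of SoxF, were split. Of 21 listed, 12 passed the filter without SCLCs, and 5 of these were higher and 4 lower in SCLCs than in tc;Sf1ESCs, with a median log2 change of -0.24 (-1.03 against tcESCs, with 5 higher and 5 lower). Flt1, a VEGF receptor, had 14 and 18 counts in tc;Sf1ESCs and 10858 and 10964 in SCLCs, and Cdh5, the cadherin of endothelial junctions, which passed only through SCLCs, 2 and 3 against 784 and 2043. Notch4 fell by 3.55 ± 0.228 and Vwf, the clotting factor of endothelium, by 5.02 ± 0.155. Of 13 that passed without todPGCLCs, 8 were higher in todPGCLCs than in tcESCs and 2 lower, with a median of 1.15, where 18.1% of all genes were higher and 11.2% lower. Nos3, Robo4 and Tie1 passed only through todPGCLCs and are left out of this count. In todPGCLCs the summed level of all 21 genes, with Nos3, Robo4 and Tie1 included, was 429 and 377 CPM against 216 and 214 in tcESCs. Pecam1 made the largest part of it, with a mean of 238 CPM in todPGCLCs and 116 CPM in tcESCs. The part of these genes in the higher Sox18 counts was not tested.

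**Figure D4:**
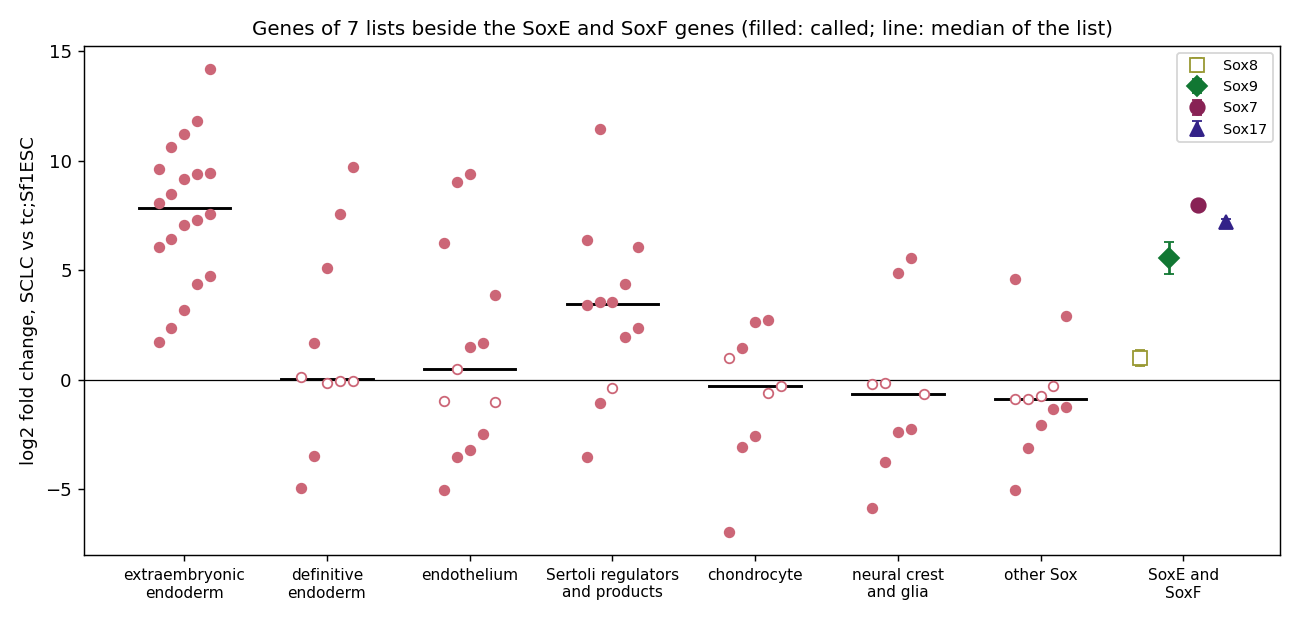
Log2 fold change between SCLCs and tc;Sf1ESCs of the genes tested in 7 lists (points, filled where called, with the median as a line) and of the 4 members tested with their SE. All 20 extraembryonic endoderm genes, 5 of which passed the filter only through SCLCs, lie above 0, from Foxa1 (1.70) to Ttr (14.18), with a median of 7.82. For the 15 that passed without SCLCs the median is 7.29. Sox7 is at 7.97 and Sox17 at 7.21, and the other lists hold genes on both sides of 0.

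Genes around SoxE in the Sertoli cell were higher in 8 and lower in 2 of the 11 that passed the filter without SCLCs, between SCLCs and tc;Sf1ESCs, with a median log2 change of 3.39. Nr5a1, the gene of the transgene, is among the 8, and its own change is that median. Its rise cannot be told apart from a change of the transgene. Emx2, a factor of the early gonad that passed only through SCLCs, had 0 counts in all ESC libraries and 266 and 430 in SCLCs, and Vnn1, a Sertoli cell enzyme, rose by 6.39 ± 0.305. Zfpm2, the cofactor of Gata4 also called Fog2, fell by 3.55 ± 0.321 and Cbx2, a Polycomb subunit needed for testis formation, by 1.09 ± 0.0953. Amh, a direct target of SOX9 in the fetal testis, gave -0.36 ± 0.415 (adjusted p = 0.456 by edgeR). Of cartilage genes regulated by Sox9, 3 were higher and 3 lower of 9 tested, from Col9a2 at 2.74 ± 0.311 to Matn1 at -6.97 ± 0.342. In todPGCLCs against tcESCs 5 of the 9 were higher and 1 lower, with a median of 1.06, and Col9a1 and Sox5, which passed only through todPGCLCs, are left out. Neural crest and glia genes, the setting of Sox10, were higher in 1 and lower in 4 of the 8 that passed without SCLCs, against tc;Sf1ESCs, with Ednrb, an endothelin receptor that passed only through SCLCs, at 5.56 ± 0.649 and Foxd3, a factor also used by ESCs, at -5.85 ± 0.167. In todPGCLCs against tcESCs 4 were higher and 3 lower of the 9 that passed without todPGCLCs. Of all genes, 18.1% were higher and 11.2% lower in that comparison, which are also the shares to set beside the cartilage count.

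Among the other Sox genes, 1 was higher and 5 lower of the 10 that passed without SCLCs, between SCLCs and tc;Sf1ESCs. Sox4 rose by 2.92 ± 0.136, and Sox30, a factor of male germ cells that passed only through SCLCs, by 4.61 ± 0.478. Sox1, a neural factor, fell by 5.05 ± 0.324, Sox2 by 3.11 ± 0.423, Sox11 by 2.08 ± 0.0877, Sox21 by 1.32 ± 0.120 and Sox13 by 1.25 ± 0.0827. Sox2 and Nanog were both higher in SCLC replicate 1 (2687 and 1838 counts) than in replicate 2 (1020 and 619), as was Sox9 (206 against 130), whereas Sox17 and Sox7 differed little between these libraries in CPM (174 and 166 for Sox17, 55.6 and 59.7 for Sox7). Against tcESCs the 5 that fell were Sox1, Sox2, Sox11, Sox3 (by 2.75 ± 0.214) and Sox15 (by 1.17 ± 0.216), and Sox13 (-0.43) and Sox21 (0.12) were not called. In todPGCLCs 6 of the 11 other Sox genes that passed without todPGCLCs were called higher than in tcESCs and none lower, where 18.1% of all genes were higher, among them Sox21 by 2.21 ± 0.248, Sox4 by 1.63 ± 0.131, Sox12 by 1.27 ± 0.107 and Sox6 by 1.63 ± 0.278. Sox5, at 1.66 ± 0.444, passed only through todPGCLCs. Sox1 was at -0.89 ± 0.276, under the 2-fold limit. Against SCLCs 9 of the 11 were higher in todPGCLCs, where 18.5% of all genes were higher, while Sox7 and Sox17 were lower there. Between the ESC lines Sox21 was higher in tc;Sf1ESCs by 1.44 ± 0.121, and Sox3 and Sox30 were lower by 1.98 ± 0.1997 and 2.41 ± 0.599.

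The genes next to the members did not all move with them. The nearest protein-coding genes to Sox9 are Kcnj2, 1705 kb away, and Slc39a11, 457 kb away. Slc39a11 was not called in SCLCs, and Kcnj2, at 3 and 4 counts in tc;Sf1ESCs and 30 and 13 in SCLCs, was called higher there (log2 2.59) but not against tcESCs (log2 0.61). In todPGCLCs, Slc39a11 was called higher than in tcESCs (log2 1.10) but not than in tc;Sf1ESCs (log2 0.95), and Kcnj2 higher than in tc;Sf1ESCs (log2 1.81) but not than in tcESCs (log2 -0.17). Next to Sox7, Pinx1 was 23.8 kb away and went the other way in SCLCs, by -0.89 on the log2 scale, under the 2-fold limit, and 4930578I06Rik was at 0 in all libraries. Around Sox17, Rp1 had at most 2 counts and Mrpl15 gave -0.71, while the overlapping Gm37587 had at most 5 counts in a library where Sox17 had 4618. At Sox8 the overlapping antisense gene 2810468N07Rik had 14 and 7 counts in tcESCs, 13 and 12 in tc;Sf1ESCs, 177 and 141 in SCLCs, and 35 and 32 in todPGCLCs. It rose in SCLCs against tc;Sf1ESCs by 3.66 on the log2 scale (adjusted p = 9.49e-05 by edgeR) while Sox8 itself had 17 and 17 counts, and its part in the Sox8 counts was not tested. Of the other neighbours of Sox8, Sstr5 was called lower in SCLCs than in tc;Sf1ESCs (log2 -4.13). Lmf1 was not called there (log2 0.93, under the 2-fold limit) but was called higher against tcESCs (log2 1.10). Tcea2, 8.67 kb from Sox18, was higher in SCLCs (log2 2.10) and todPGCLCs (log2 1.89) than in tc;Sf1ESCs. Polr2f and Pick1 beside Sox10 were called in none of the 6 comparisons.

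As a description over the 8 libraries, the log2 CPM of Sox7 and Sox17 had a Pearson correlation of 0.915, Sox9 and Sox17 of 0.830, and Sox9 and Sox7 of 0.625, over points that fall into 4 groups. Among 16707 genes the ones most like Sox17 were Zfand3 (0.997), Cybrd1 (0.996) and Plat (0.996), a plasminogen activator that went from 0.901 CPM in tc;Sf1ESCs to 118 CPM in SCLCs. Nearest to Sox7 were Sdr39u1 (0.996), Hsp90b1 (0.996) and Reep4 (0.994), and nearest to Sox9 were E130317F20Rik (0.994), Atg16l2 (0.987) and Gm7809 (0.985). A correlation over 0.95 was found for 837 genes with Sox17, 321 with Sox7 and 183 with Sox9, so these names are among many.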

How the data were processed

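RNA-sequencing of poly-A RNA was analysed in 8 libraries of 4 groups, tcESC, tc;Sf1ESC, SCLC and todPGCLC, grouped by their titles. Per the labels, the authors trimmed reads with Trim Galore, aligned them to GRCm38 with STAR 2.4.0, used Picard, counted reads per gene with HTSeq and tested with DESeq2. They deposited raw counts per Ensembl gene ID, without normalization. Reads set aside as ambiguous, not unique or outside genes, 35.6% to 41.6% of the counts in a file, were left out here.

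The IDs were named with GENCODE M21, 45229 of 46078. Counts were normalized by TMM and tested with edgeR 4.0.16 in R 4.3.3 (quasi-likelihood test, Benjamini-Hochberg adjustment, genes with a mean count above 10), in one fit of 6 libraries without todPGCLCs and one of all 8. Genes were called with a fold change over 2 and an adjusted p under 0.05. SE is the log2 fold change divided by the square root of F. Median changes of all genes were at most 0.046 in size, so no centring was added. The test recovered changes planted in simulated data, in which few genes changed and none of those had a low count. That does not cover members with few counts or comparisons in which a large share of genes changed. The members and gene lists were chosen with earlier results of these data known. Genes named from a list are the 2 largest and 2 smallest changes called with a mean of at least 1 CPM in SCLCs against tc;Sf1ESCs (for germ cell markers, todPGCLCs against tcESCs), besides members, other Sox genes, neighbours, and genes most like a member over 8 libraries. Gata6, Amh, Dhh and Cer1 were added as known markers after their values were seen. Pecam1, Col4a1, Col4a2 and Sparc are named as the largest parts of a summed level.

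Alternatives were RLE size factors, library totals, filterByExpr, every gene with at least 1 count, the 4 libraries compared, all 8 libraries, DESeq2 1.42.0, the replicate number as a block, a test against a 2-fold change, each library left out, and TPM. Sequences come from GENCODE M21 transcripts, and that of Sox7 is not reported here.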

Additional observations from a re-analysis of the deposited data

How the results depend on the processing

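Of the members called, the counts of 3 and 3 in SCLCs against tcESCs and tc;Sf1ESCs were the same under each alternative and with any library left out. In tc;Sf1ESCs against tcESCs the count was 1, and 2 when only the 4 libraries compared or all 8 libraries were fitted, with a range of 1 to 2 over libraries left out. In todPGCLCs against tcESCs it was 3, and 5 with filterByExpr, with every gene or with only the 4 libraries compared, which let Sox10 and Sox18 into the test, 1 in the test against a 2-fold change, and 1 to 3 with libraries left out. Against tc;Sf1ESCs it was 4, and 6 with filterByExpr or every gene, 5 with only the 4 libraries compared, 3 with DESeq2, 2 in the test against a 2-fold change, and 3 to 4 with libraries left out. Against SCLCs it was 2, and 3 with filterByExpr, 4 with every gene, and 2 to 3 with libraries left out. With every gene the prior degrees of freedom were estimated at 2305.5, in place of 3.998, and DESeq2 on every gene, chosen after seeing the data, gave 1, 3, 3, 3, 3 and 2. The test against a 2-fold change called 594 genes in tc;Sf1ESCs against tcESCs in place of 1922, and 3078 in todPGCLCs against tcESCs in place of 4906.

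Directions that turned were those of uncalled members. Sox8 in SCLCs against tcESCs gave 0.043 without tcESC replicate 1 and -0.31 without tcESC replicate 2, and Sox9 in tc;Sf1ESCs against tcESCs gave 0.71 without tcESC replicate 2 and 0.61 without tc;Sf1ESC replicate 2, against -5.32 without tc;Sf1ESC replicate 1. Same-numbered libraries were not paired, with correlations of their deviations from -0.026 to 0.062, and the replicate block gave 1, 3, 3, 3, 4 and 2 members called. Library totals in place of TMM shifted the median of all genes in todPGCLCs against SCLCs from 0.012 to 0.146. They gave 34.2 CPM per kb for Sox17 in SCLCs, and TPM, another unit, gave 129.95 for Sox17, 63.8 for Sox7 and 5.62 for Sox9. With 1 to 25 counts in a library for Sox8, Sox10 and Sox18, depth limits what can be said of these genes.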
